A study of Homo sapiens
Mus musculus and Mus musculus and Homo sapiens with 16 samples.

Results

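The genes described here were 10 members of the Notch pathway, chosen by name: the receptors NOTCH1 and NOTCH2 and the target genes HES1, HES4, DTX1 and NRARP in the human counts, and the ligands Jag1, Jag2, Dll1 and Dll4 in the mouse counts. They were 10 of the 107722 genes in the human and mouse tables together. REC-1, a human cell line of mantle cell lymphoma (MCL), was cultured with or without MS-5, a mouse bone marrow stromal cell line, for 24 h. REC-1 cells were sequenced as a monoculture (Sep), as the cells left in suspension above the stroma (Susp) and as the cells adhered to the stroma (Adh). RNA of the Adh fraction was extracted together with the MS-5 cells beneath, so that its mouse reads gave MS-5 in coculture, and MS-5 alone was the control. Each of these groups had 4 libraries of polyadenylated RNA, no agent was added to any of them, and each species was represented by 1 cell line. The study describes the libraries of a group as independent experiments, and the p-values measure the spread between them. The main tests did not pair libraries by replicate number, although Susp and Adh were fractions of cocultures and a sample code in the labels groups the samples of a number.

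Notch is a signalling pathway between cells that touch. A ligand of the Jagged or Delta-like family on one cell binds a Notch receptor on its neighbour. The receptor is then cut by an ADAM protease and by gamma-secretase, and its freed intracellular part enters the nucleus, joins the DNA-binding protein RBPJ and a Mastermind coactivator, and switches on target genes of the HES and HEY families. Transcripts of a target gene therefore serve as a readout of receptor activity, whereas those of a receptor or ligand report its supply. In bone marrow, stromal cells are a known source of Notch ligands for lymphoid cells, and activating NOTCH1 mutations occur in a subset of MCL.

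RBPJ acts on target genes through a short DNA motif, and the promoters of the members that held it are shown for that reason. The RBPJ motif TGGGAA was searched on both strands in the 250 bases before the start of the canonical GENCODE transcript (release 44, GRCh38). HES1 held 2 matches, both on the gene's own strand, at 84 to 79 and at 70 to 65 bases before the start. HES4 held 1 match on its own strand, at 76 to 71 bases before the start. The windows of NOTCH1, NOTCH2, DTX1 and NRARP held none, which says only that these letters were absent from those 250 bases. Of 20032 protein-coding genes, 19.6% held the motif and 2.48% held it at 2 or more places, and 12 of 58 pathway genes (20.7%) held it. Both sequences run 5′ to 3′ on the gene's strand, with the motif in capitals. The HES1 sequence (chr3:194135898-194136147, plus strand) is the whole window, and the HES4 sequence (chr1:1000158-1000347, minus strand) is the 190 bases farthest from the start.
HES1: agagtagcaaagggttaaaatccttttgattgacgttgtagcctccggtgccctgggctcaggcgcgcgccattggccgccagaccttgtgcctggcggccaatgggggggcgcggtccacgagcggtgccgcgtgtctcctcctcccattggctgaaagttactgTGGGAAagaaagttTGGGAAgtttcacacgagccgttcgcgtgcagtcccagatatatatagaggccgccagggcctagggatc
HES4: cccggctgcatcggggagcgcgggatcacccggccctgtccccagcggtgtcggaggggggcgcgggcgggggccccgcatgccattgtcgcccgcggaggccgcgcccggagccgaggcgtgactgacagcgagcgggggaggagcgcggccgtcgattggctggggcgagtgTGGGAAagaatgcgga

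Defining markers of the labelled cell types were present, except Lum in MS-5 cells. In the REC-1 libraries the 6 B cell markers, CCND1 included, summed to between 4781 and 6223 CPM (counts on the gene per 1000000 counted reads, on library sizes scaled by edgeR's TMM method). The 5 stromal markers summed to at most 0.513 CPM there. Of the T cell markers CD2 was at 0 in all 12 libraries and the 4 genes summed to between 2.343 and 7.607 CPM, and the 4 myeloid markers summed to at most 2.197 CPM. The 4 endothelial markers summed to between 16.9 and 31.86 CPM through PECAM1 alone, with CDH5, KDR and TEK at 0. In the mouse reads the 6 stromal markers summed to between 3240 and 3898 CPM (Lum was at 0), the 5 B cell markers to at most 0.0681 CPM and the 4 endothelial markers to at most 0.177 CPM. T cell markers were at 0 there, and the 4 myeloid markers summed to between 24.71 and 28.81 CPM, of which Cd14 gave 21.4 to 26.15 CPM while Itgam was at 0.

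Some REC-1 libraries stood apart in ways that touch the members. Susp replicate 2 was low for long genes: the 10% of tested genes with the longest exons (at least 11896 bases) had a median deviation of -0.37 on the log2 scale from the mean of the 12 libraries, against -0.07 to 0.12 in the other libraries. The 10% with the highest GC content (at least 61.1%) had a median deviation of -0.50 in Sep replicate 1 and -0.46 in Adh replicate 1, and of 0.48 in Susp replicate 2 (Susp replicate 1 was at -0.10). NOTCH2, with 16744 exonic bases, was longer than 96.2% of the tested genes. HES4 (73.9% GC), DTX1 (65.2%), NOTCH1 (63.3%) and NRARP (59.2%) lay above 100%, 97.3%, 94.5% and 85.2% of the tested genes in GC content, to the rounding given, whereas HES1 (49.97%) and NOTCH2 (49.4%) lay near the middle. What part these library properties had in the members' values was not tested beyond the alternatives given beside them.

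Stromal ligands are described first, in MS-5 cells. Jag1 was the most abundant of the 4 ligand genes, Dll1 came next, Jag2 was near the lower limit of measurement and Dll4 was not detected. Per length of exon, Jag1 averaged 1.22 RPKM in MS-5 alone and 1.41 RPKM in coculture, Dll1 0.391 and 0.437 RPKM, and Jag2 0.105 and 0.0782 RPKM (n = 4 each), and the ranges of neighbours in this order did not overlap in either group.

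Jag1 (ENSMUSG00000027276, chr2:137081456-137116644, minus strand of GRCm38) encodes a Jagged ligand that is anchored in the cell membrane. Its level was 8.927, 6.17, 6.944 and 6.416 CPM in MS-5 alone, replicates 1 to 4, and 8.918, 8.579, 8.685 and 6.641 CPM in coculture. Replicate 1 of MS-5 alone was as high as the coculture libraries and replicate 4 in coculture was as low as the controls, so the groups overlapped. The log2 difference of coculture over alone was 0.20 (SE 0.15, edgeR adjusted p = 0.676).

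Dll1 (ENSMUSG00000014773, chr17:15367354-15376872, minus strand) encodes a Delta-like ligand. It stood at 1.604, 1.791, 1.331 and 1.878 CPM in MS-5 alone and at 2.185, 1.055, 2.444 and 1.684 CPM in coculture. The coculture libraries spread on both sides of the controls, and the log2 difference was 0.18 (edgeR adjusted p = 0.877). A gene on the opposite strand, A930024N18Rik, shares 867 exonic bases with Dll1. The library kit did not mark strand, so reads of the pair cannot be told apart there.

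Jag2 (ENSMUSG00000002799, chr12:112907819-112929776, minus strand), the other Jagged ligand, was at 0.4185, 1.194, 0.4629 and 0.8606 CPM in MS-5 alone and at 0.3544, 0.8511, 0.4026 and 0.5719 CPM in coculture. In each group replicate 2 was the highest and the groups overlapped almost wholly. With a log2 difference of -0.37 and a 95% interval that spanned 0, an edgeR adjusted p of 0.811 left no difference detectable at this depth.

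Dll4 (ENSMUSG00000027314, chr2:119325784-119335962, plus strand) encodes the Delta-like ligand best known from blood vessels. No read was counted on it in any of the 8 libraries. A count of 0 allows up to 3 counts, or 0.174 to 0.299 CPM in MS-5 alone and 0.0863 to 0.102 CPM in coculture, as counting error only. These floors treat reads as independent and are too low where both mates of a pair were counted. Dll3 and the noncanonical ligand gene Dlk1 were also at 0 in all 8 libraries.

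None of the 3 ligand genes that passed the filter was called in coculture, where 0.205% of the 12201 mouse genes tested were called. A call needed an edgeR adjusted p no higher than 0.05 with a fold change of 1.5 or more in either direction. The 2 groups overlapped for all 3 genes and did not for 6.74% of the genes tested.

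**Figure D1:**
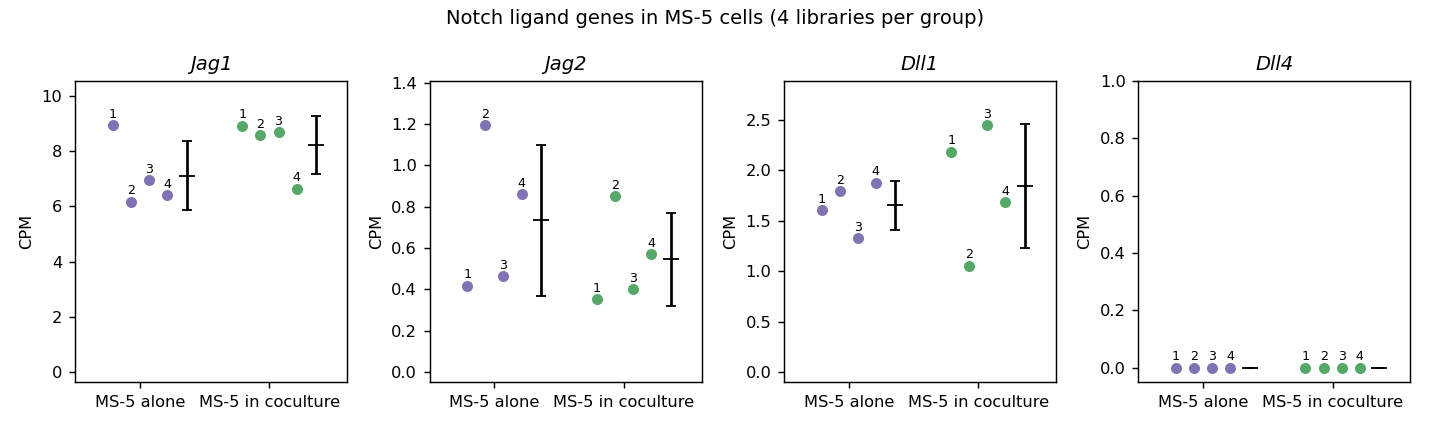
Levels of the 4 Notch ligand genes in MS-5 cells, in CPM on linear axes that differ between panels. Points are libraries labelled by replicate number, and the bar beside each group is the mean ± SD (n = 4). The groups overlap for Jag1, Jag2 and Dll1, and Dll4 lies at 0 throughout.

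Because RNA of both species was read from the same Adh libraries, the source of the ligand transcripts could be counted. Over Jag1, Jag2, Dll1, Dll3 and Dll4 and their human orthologs, 69.0% ± 4.94 (SD, n = 4 libraries) of the reads were mouse, at 63.5%, 68.1%, 75.5% and 68.8% in replicates 1 to 4. Mouse reads made up 71.6% ± 5.46 of Jag1, 96.2% ± 6.26 of Dll1 and 56.5% ± 12.4 of Jag2. All 129 Dll3 reads and both Dll4 reads (2 in all, in 1 library) were human. Receptor reads were more evenly divided, with 47.3% ± 6.0 from mouse over the 4 receptors. These shares depend on how much RNA each species gave, and mouse reads were the larger part of every Adh library. Expressed as CPM within each species, the mouse share of the ligands was 40.0% ± 3.3 and that of the receptors 21% ± 0.618. Fewer cells of a species and less RNA per cell cannot be told apart in such libraries. Reads assigned to the wrong species were rare on the 5 B cell and 4 stromal markers checked: at most 0.00589% carried the other species' assignment. Rates on other genes were not tested. Mouse Mfng was at 0 in MS-5 alone and at 4, 5, 4 and 6 reads in Adh replicates 1 to 4. Mouse Pecam1 was likewise at 0 alone and at 6, 2, 1 and 4 in Adh. Human PECAM1 had 311, 252, 220 and 208 reads there, and human MFNG averaged 64.61 CPM. Mouse Dtx1 stayed at 0 beside human DTX1 at 964.3 CPM.

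Turning to REC-1 cells, both receptors that define the human members were expressed, and neither was called in any comparison. NOTCH1 (ENSG00000148400, chr9:136494433-136546048, minus strand of GRCh38) stood at 62.04, 119.0, 103.9 and 136.0 CPM in Sep replicates 1 to 4, at 79.65, 91.22, 109.5 and 118.3 CPM in Susp and at 54.65, 85.31, 69.38 and 90.07 CPM in Adh. Adh replicate 1 was the lowest library and Sep replicate 4 the highest. Sep replicate 1 lay below 3 of the 4 Adh libraries, Adh replicates 2 and 4 lay above Susp replicate 1, and the Susp range lay within that of Sep. No pair of groups was therefore separate. The log2 difference was -0.42 between Adh and Susp (SE 0.20, edgeR adjusted p = 0.295) and -0.08 between Susp and Sep (edgeR adjusted p = 0.862). Between Adh and Sep it was -0.49 (95% interval -0.93 to -0.06), with an unadjusted p of 0.0277 in edgeR and an adjusted p of 0.184. Without Sep replicate 1, which was low for genes of high GC content, this last difference was -0.68 and passed the call (edgeR adjusted p = 0.0232), and over the 20 alternatives for it the adjusted p ranged from 3.74e-05 to 0.425. With the replicate number as a block, NOTCH1 passed the p threshold in both comparisons of Adh but stayed under the fold minimum.

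NOTCH2 (ENSG00000134250, chr1:119911553-120100779, minus strand), the receptor with the larger part of the reads, was at 609.1, 690.1, 685.0 and 669.8 CPM in Sep, at 659.8, 298.1, 686.8 and 683.4 CPM in Susp and at 582.7, 640.6, 549.9 and 489.9 CPM in Adh. Susp replicate 2 lay far below every other library. Its value carried the Susp mean from 676.7 ± 14.71 CPM (SD, n = 3, without it) to 582.0 ± 189.7 CPM (n = 4). With all libraries the log2 difference was -0.04 between Adh and Susp, -0.19 between Susp and Sep and -0.23 between Adh and Sep (edgeR adjusted p = 0.923, 0.605 and 0.529). Without that library these values were -0.24, 0.02 and -0.22 (edgeR adjusted p = 0.117, 0.962 and 0.0495), the last below the p threshold and under the fold minimum. Of its near-identical paralog NOTCH2NL between 5 and 39 reads were counted per library, so that reads shared by both genes make the NOTCH2 level uncertain by an amount not measured here.

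Among the other receptors, NOTCH3 was at 50.31 to 116.7 CPM in Sep and 93.0 to 163.9 CPM in Susp, a log2 difference of 0.62 that did not pass the test (edgeR adjusted p = 0.229) but was called in 4 of 19 alternatives, with adjusted p from 5.54e-08 to 0.373. NOTCH4 was between 3.084 and 10.61 CPM over the 12 libraries. REC-1 cells also held ligand transcripts of their own. JAG1 was at 9.533 to 12.48 CPM in Adh, 5.839 to 8.942 CPM in Susp and 6.905 to 9.171 CPM in Sep. The Adh libraries lay above all libraries of the other groups, with log2 differences of 0.49 to Susp and 0.41 to Sep that did not pass the test (edgeR adjusted p = 0.156 and 0.18). Against Susp, JAG1 was called in 1 of 19 edgeR and DESeq2 alternatives (adjusted p from 0.0152 to 0.384). Against Sep it was called in 1 of 20 (0.0266 to 0.372). JAG1 did not meet the naming rule given below and is described with the other ligands of the list. JAG2 and DLL3 reached at most 3.012 and 6.331 CPM, and DLL1 and DLL4 were too low to be tested.

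The target genes bear on receptor activity in each fraction only in so far as their transcripts follow it. Receptor activity itself was not measured. DTX1 (ENSG00000135144, chr12:113056730-113098028, plus strand), which encodes a Deltex E3 ubiquitin ligase that binds the intracellular part of Notch, was the most abundant. It measured 771.3, 1014, 1039 and 1209 CPM in Sep, 902.8, 1200, 1199 and 1167 CPM in Susp and 809.6, 1007, 927.9 and 1113 CPM in Adh. Replicate 1 was the lowest in every group, and the groups overlapped. The log2 difference was -0.21 between Adh and Susp, 0.15 between Susp and Sep and -0.06 between Adh and Sep (edgeR adjusted p = 0.391, 0.559 and 0.826). With each library corrected for GC content and length, all 3 changed sign, to 0.23, -0.09 and 0.14, and none was called, so no direction is given for DTX1.

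NRARP (ENSG00000198435, chr9:137299631-137302271, minus strand), the product of which is a negative feedback regulator of Notch, was at 8.582, 14.81, 18.94 and 16.11 CPM in Sep, 11.22, 19.98, 17.4 and 25.92 CPM in Susp and 9.772, 11.55, 13.1 and 17.06 CPM in Adh. Susp replicate 4 was the highest library and replicate 1 the lowest of each group. Between Adh and Susp the log2 difference was -0.55 (95% interval -1.09 to -0.01), with an unadjusted p of 0.0476 in edgeR and an adjusted p of 0.271. Between Susp and Sep it was 0.36 and between Adh and Sep -0.19 (edgeR adjusted p = 0.459 and 0.73). Without Susp replicate 4 the first was -0.35 and the second 0.16, and without Sep replicate 3 the third was -0.041. An antisense gene, ENSG00000288234, shares 73 exonic bases with NRARP and cannot be told apart from it there.

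HES1 (ENSG00000114315, chr3:194136148-194138732, plus strand) encodes a transcriptional repressor and is a canonical Notch target in many tissues. It stood at 16.06, 16.82, 12.35 and 19.54 CPM in Sep, 12.88, 23.66, 16.72 and 18 CPM in Susp and 14.73, 13.29, 24.15 and 22.32 CPM in Adh. High and low libraries were found in each group. The log2 difference was 0.05 between Adh and Susp (95% interval -0.40 to 0.50), 0.13 between Susp and Sep and 0.18 between Adh and Sep (edgeR adjusted p = 0.915, 0.755 and 0.676).

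HES4 (ENSG00000188290, chr1:998962-1000172, minus strand), a related repressor with no ortholog in the mouse, was the most variable member. It stood at 9.92, 19.83, 18.62 and 34.29 CPM in Sep, 7.301, 46.59, 28.42 and 36.73 CPM in Susp and 8.419, 20.03, 15.55 and 27.46 CPM in Adh. Within Susp alone the libraries ran from 7.301 to 46.59 CPM, wider than any difference between group means. The log2 difference was -0.76 between Adh and Susp (SE 0.45, 95% interval -1.71 to 0.19), 0.53 between Susp and Sep and -0.23 between Adh and Sep (edgeR adjusted p = 0.379, 0.539 and 0.822). Without Susp replicate 2 the first was -0.44 and the second 0.21. Without the low-count filter the first passed the call (edgeR adjusted p = 7.9e-05), and over its 19 alternatives the adjusted p ranged from that value to 0.672.

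**Figure D2:**
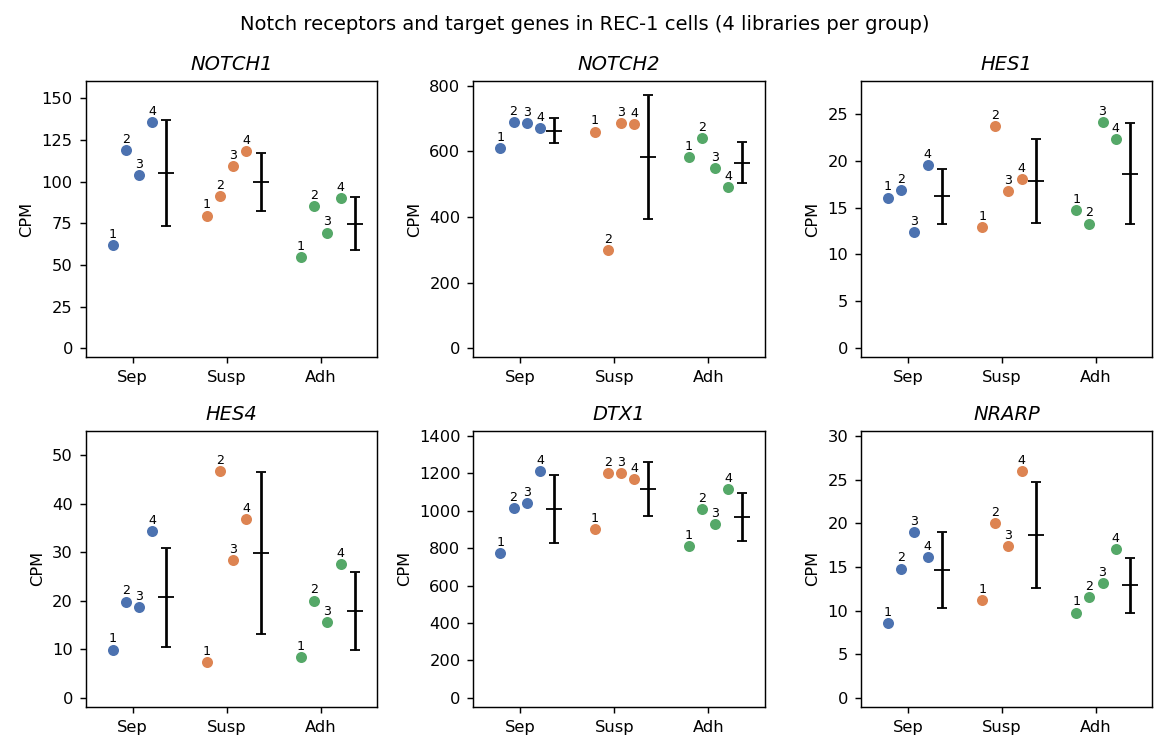
Levels of the 6 human genes in REC-1 cells, in CPM on linear axes that start near 0 and differ between panels. Points are libraries labelled by replicate number, and the bar beside each group is the mean ± SD (n = 4). No group is separate from another, Susp replicate 2 lies far below the others for NOTCH2, and replicate 1 is the lowest library of each group for NOTCH1, HES4, DTX1 and NRARP.

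None of the 6 human members was called in any of the comparisons. For reference, 0.778% of the 12861 human genes tested were called between Adh and Susp, 0.731% between Susp and Sep and 2.4% between Adh and Sep. Groups did not overlap for 11.4%, 11.3% and 15.7% of the tested genes, and for none of the members. The median log2 difference of the 6 members was -0.31 between Adh and Susp, 0.14 between Susp and Sep and -0.21 between Adh and Sep, beside -0.01, -0.01 and 0.00 over all genes tested. The genes of highest GC content also differed between groups. Their median deviation, averaged over the libraries of a group, was -0.029 in Sep, 0.208 in Susp and -0.129 in Adh. HES4, DTX1, NOTCH1 and NRARP are of high GC content, and the part of this in the members' medians was not tested. Counting unadjusted p-values below 0.05 in edgeR, 1, 0 and 1 of the 6 members passed, and 18%, 16.7% and 20.2% of all tested genes did. DESeq2 called none of them either.

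**Figure D3:**
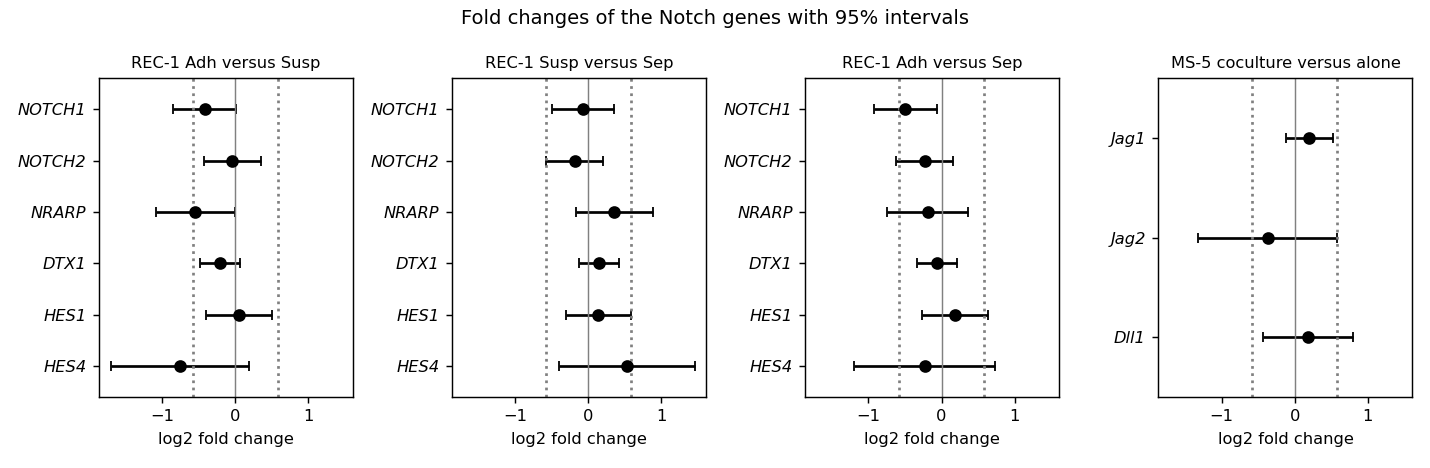
Log2 fold change of each gene in 4 comparisons, first group over second, from edgeR. Points are fitted values, whiskers 95% intervals, and dotted lines the fold minimum of 1.5 in either direction. All intervals span 0 except NOTCH1 between Adh and Sep and NRARP between Adh and Susp, and no point passed the adjusted p threshold.

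Per length of exon, DTX1 was the highest of the human members in each group, averaging 230.9 RPKM in Sep, 255.9 in Susp and 220.9 in Adh. No library of another member reached its lowest value. NOTCH2 averaged 39.6, 34.8 and 33.8 RPKM and HES4 18.5, 26.6 and 16.0 RPKM, without overlap in Sep and Adh, whereas in Susp HES4 ran from 6.53 to 41.67 RPKM and NOTCH2 from 17.8 to 41.02 RPKM. Libraries of HES4 overlapped with those of HES1 in all 3 groups and with those of NOTCH1 in Sep and Susp. NOTCH1 (8.40, 7.96 and 5.97 RPKM), HES1 (7.86, 8.65 and 9.05 RPKM) and NRARP (5.53, 7.05 and 4.88 RPKM) lay close together with overlapping libraries, and so their order is not given. Exon lengths came from GENCODE and not from the annotation used for counting, so these levels are approximate.

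Some library differences were shared by several members. Replicate 1 was the lowest library in all 3 REC-1 groups for NOTCH1, NRARP, DTX1 and HES4. This held for 14 of the 52 pathway genes tested (26.9%) and for 11% of all tested genes. The deviation of HES4 from its mean had the same sign as the median of the 1280 genes of highest GC content in 12 of 12 libraries, that of NRARP in 10, those of NOTCH1 and DTX1 in 9, that of HES1 in 8 and that of NOTCH2 in 7. Of all tested genes, 1.03% shared the sign in 12 libraries, 10.4% in at least 10, 19.1% in at least 9, 30.1% in at least 8 and 44% in at least 7. HES4, DTX1 and NOTCH1 are themselves among the 1280 genes, and the share among genes of like GC content was not determined. Susp replicate 2 held less than 0.6 of the next lowest Susp library for 6 of the 52 pathway genes (11.5%), NOTCH2 among them, and for 6.17% of all tested genes.

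**Figure D4:**
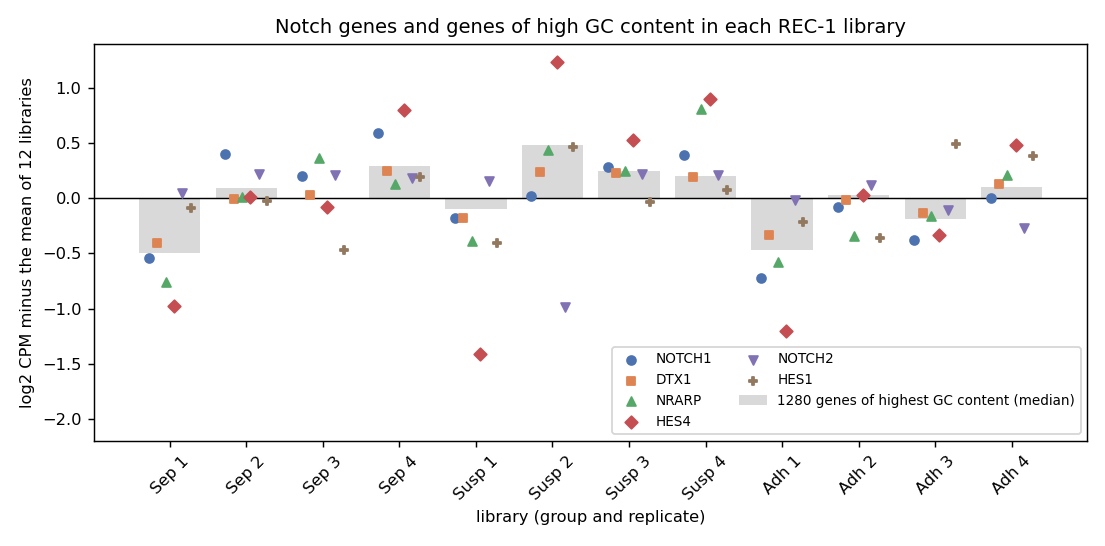
Deviation of log2 CPM from the mean of the 12 REC-1 libraries, by library, for the 6 human genes (symbols). Grey bars give the median of the 1280 genes of highest GC content. HES4 lies on the side of the bar in each library, and NOTCH2 lies at -0.99 in Susp replicate 2.

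The genes whose levels moved most like a member's were found over the same libraries, among 8493 human genes of at least 10 CPM. NOTCH1 was most like CIC (Pearson r = 0.984), KMT2B (0.975) and CROCCP2 (0.972), and NOTCH2 like CHD4 (0.992), CBL (0.982) and ITPR2 (0.982). DTX1 was most like MAP3K11, FBXW5 and TBC1D10B (each 0.981), HES4 like CTDP1 (0.967), IRF2BP1 (0.962) and FTH1 (0.96), and NRARP like PIAS4 (0.926), FXR2 (0.909) and DAPK3 (0.902). HES1 had the least similar nearest genes, UQCC2 (0.852), SUMF2 (0.84) and TMEM243 (0.816). Among 8817 mouse genes over 8 libraries, Jag1 was most like Ccdc122 (0.957), Jag2 like Rffl (0.957) and Dll1 like Tab2 (0.954). No other Notch pathway gene was among these nearest genes. The libraries differ in depth and in the genes' base composition, which act on all genes of a library together, and the values carry no test.

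The wider pathway was followed with 58 human genes, of which 52 were tested. Between Adh and Susp 0 of 52 were called by edgeR and 1 by DESeq2, and their median log2 difference was -0.03. In edgeR 11 of the 52 had an unadjusted p below 0.05, beside 18% of all tested genes. Between Susp and Sep 1 was called by edgeR, which fell, beside 0.731% of all tested genes, and the median was -0.02. There 10 of the 52 had an unadjusted p below 0.05, beside 16.7% of all tested genes. Between Adh and Sep 0 of 52 were called by edgeR and 1 by DESeq2, with a median of -0.05. Here 9 of the 52 had an unadjusted p below 0.05 in edgeR, beside 20.2% of all tested genes. Groups did not overlap for 3, 6 and 8 of the 52, which is 5.77%, 11.5% and 15.4%, beside 11.4%, 11.3% and 15.7% of all tested genes. The shares of all genes called refer to edgeR. For DESeq2 such a share is not given, so its single calls cannot be set against a background, and its counts over all REC-1 genes stand with the alternatives below.

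The gene that fell was CR2, the complement receptor 2 of B cells and a reported Notch target there. It stood at 195.1, 195.3, 174.4 and 172.3 CPM in Sep, 132.8, 93.31, 121.8 and 129.5 CPM in Susp and 148.1, 140.5, 134.9 and 149.0 CPM in Adh. Each group was separate from the others, with Susp the lowest and Adh between. The log2 difference between Susp and Sep was -0.63 (SE 0.10, edgeR adjusted p = 0.0055). Without Susp replicate 2, its lowest library, the difference was -0.54 (edgeR adjusted p = 0.000906) and was no longer called because it was under the fold minimum. Over the 19 alternatives CR2 was called in 17, with adjusted p from 1.53e-06 to 0.0307. Between Adh and Sep the difference was -0.36 (edgeR adjusted p = 0.0645). The other listed B cell targets were not called in any comparison. MYC was at 166.3 to 212.0 CPM in Sep, 200.8 to 230.4 CPM in Susp and 186.3 to 240.8 CPM in Adh. SH2B2 had a log2 difference of 0.60 between Susp and Sep (edgeR adjusted p = 0.186) and was called in 3 of 19 alternatives, with adjusted p from 5.25e-05 to 0.358. Between Adh and Sep, BLK had a difference of -0.36 (edgeR adjusted p = 0.138) and FCER2, picked after its values were seen, one of 0.55 (edgeR adjusted p = 0.14).

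By role, the 9 genes of receptor cleavage, among them the proteases ADAM10 and ADAM17 and the gamma-secretase subunits NCSTN and APH1A, had log2 differences between -0.27 and 0.34 in all 3 comparisons, and none was called. The 5 glycosylation genes, which include the Fringe genes LFNG, MFNG and RFNG that tune ligand choice, had differences from -0.47 to 0.40 and none was called. In the nuclear complex all 8 tested genes had negative differences between Susp and Sep (median -0.27) and between Adh and Sep (median -0.15), and 6 of 8 had positive ones between Adh and Susp (median 0.09). None of them was called. Susp replicate 2 was the lowest Susp library for all 8 genes, and both of the first comparisons share the Sep libraries. Without Susp replicate 2, 5 of 8 differences were negative between Susp and Sep (median -0.096), 7 of 8 between Adh and Susp (median -0.078) and 8 of 8 between Adh and Sep (median -0.14), and none was called. SPEN, a corepressor that competes for RBPJ, averaged 602.8 CPM in Sep, 431.0 CPM in Susp and 466.8 CPM in Adh (edgeR adjusted p = 0.239 for Susp against Sep), and RBPJ itself averaged 90.97, 73.22 and 85.81 CPM.

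Of the 12 genes of receptor turnover and trafficking none was called. DTX4, a further Deltex gene, averaged 145.8 CPM in Sep and 111.1 CPM in Adh (log2 difference -0.39, edgeR adjusted p = 0.0524), with groups that did not overlap. The following genes were picked after their values were seen. DTX3 averaged 10.02 CPM in Adh and 6.179 CPM in Susp (log2 difference 0.69, edgeR adjusted p = 0.0948), and it was called without Susp replicate 2 (0.88, edgeR adjusted p = 0.0276) and in 5 of 19 alternatives in all, over which the adjusted p ranged from 0.00616 to 0.226. MIB2, a ubiquitin ligase for ligands, averaged 21.89 CPM in Adh and 36.21 CPM in Susp (log2 difference -0.74, edgeR adjusted p = 0.197), and was called in 3 of 19 alternatives, with adjusted p from 3.03e-05 to 0.433. HEY1, a repressor of the HEY family, was at 22.84 to 29.67 CPM in Sep, 13.77 to 19.24 CPM in Susp and 10.21 to 21.84 CPM in Adh. Its Sep libraries lay above all others, with log2 differences of -0.62 for Susp and -0.67 for Adh that did not pass the test (edgeR adjusted p = 0.147 and 0.0707). Against Sep, HEY1 in Adh was called in 7 of 20 alternatives, among them without Adh replicate 3 (-0.86, edgeR adjusted p = 0.0313) and without Susp replicate 2 (-0.67, 0.0297), with adjusted p from 0.000256 to 0.191 over all 20. HEY1 in Susp was called against Sep in 3 of 19 edgeR and DESeq2 alternatives, with adjusted p from 0.00302 to 0.272. HES5 was at 0 in all 12 libraries.

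**Figure D5:**
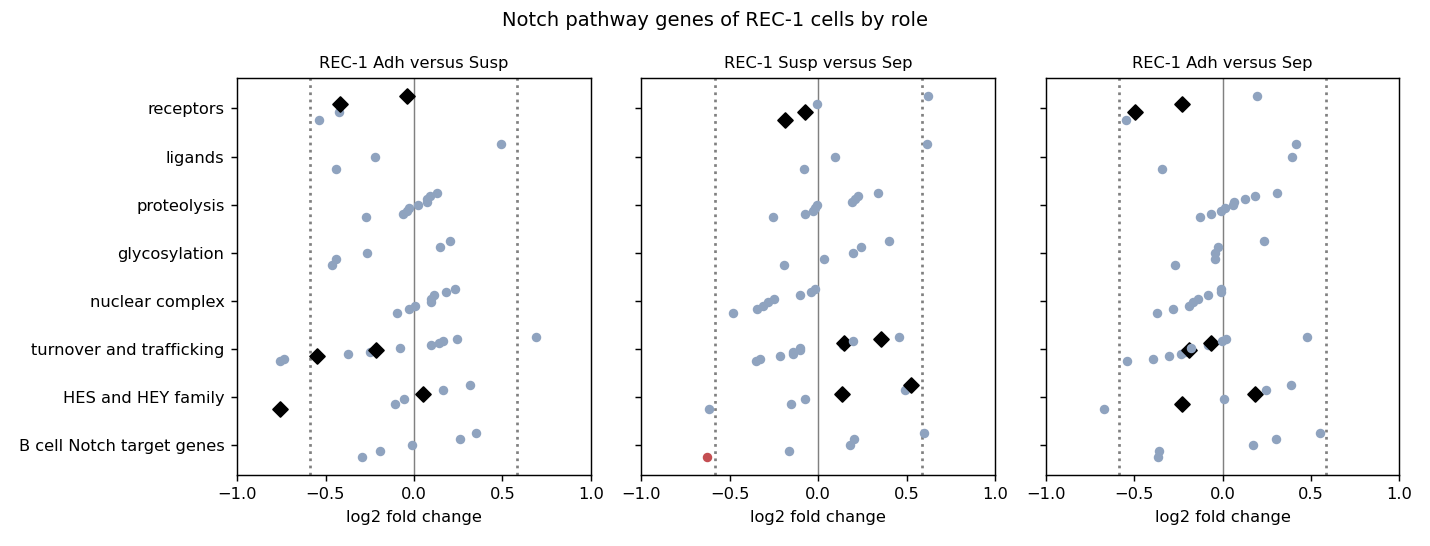
Log2 fold change of the 52 tested Notch pathway genes of REC-1 cells by role, first group over second. Diamonds are the 6 named human genes, circles the other pathway genes, the red circle is CR2, the gene called, and dotted lines mark the fold minimum of 1.5. Points spread on both sides of 0 in most roles, and all 8 genes of the nuclear complex lie below 0 in both comparisons with Sep, which share the Sep libraries, whereas without Susp replicate 2 this held for 5 of 8 between Susp and Sep.

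In MS-5 cells 59 pathway genes were followed and 45 were tested. None was called by edgeR in coculture, 6 had an unadjusted p below 0.05 (11.3% of all mouse genes tested had one), DESeq2 called none, and the median log2 difference was 0.02. The stroma expressed receptors of its own, with Notch2 at 86.84 to 119.0 CPM, Notch3 at 48.89 to 71.49 CPM and Notch1 at 17.76 to 26.83 CPM. Notch3 averaged 63.66 CPM in coculture and 55.03 CPM alone without overlap of the groups (log2 difference 0.21, edgeR adjusted p = 0.276). Mib1, the ubiquitin ligase that lets a ligand pull on its receptor, was at 113.6 to 147.2 CPM. Among target genes, Hes1 was at 0.6259 to 3.544 CPM (log2 difference 0.82, edgeR adjusted p = 0.567) and Hes5, Hey1, Hey2, Nrarp and Dtx1 were at 0 in all 8 libraries. Dlk2, a noncanonical ligand picked after its values were seen, averaged 20.46 CPM in coculture and 27.14 CPM alone (log2 difference -0.41, edgeR adjusted p = 0.236).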

How the data were processed

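RNA-seq counts of 12 REC-1 libraries (human table, 58051 genes) and 8 MS-5 libraries (mouse table, 49671 genes) were used, and 20 further per-sample columns were not. Per the study's methods and the submitters' processing notes, the authors used Xenome to sort read pairs by species, STAR 2.5.1b to align each species' pairs to GRCh38 or GRCm38 with unique hits kept, and counted these on genes with featureCounts (Subread 1.5.2). The deposited values were raw counts. Between 65.6% and 79.8% of the counts from 1 to 10 were even in each library, so mates of a pair appear to be counted separately, and floors and shares cover counting error of reads only. Unique alignment leaves out reads shared by paralogs, and the counting of strand is not given in the sources used here.

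Totals were 9325412 to 12597891 per Sep, 15000927 to 21467832 per Susp and 7758979 to 13241751 per Adh library, and 10097555 to 17397651 per MS-5 and 29495404 to 34615602 per Adh library for mouse. Samples were grouped by the labels. The REC-1 groups were fitted in 1 edgeR 4.0.16 model (R 4.3.3; filterByExpr, TMM, earlier quasi-likelihood F-test) and the mouse counts in another, with Benjamini-Hochberg adjustment over all genes tested. Genes were called at an adjusted p no higher than 0.05 with a fold change of 1.5 or more. RPKM, GC content, positions and promoters used GENCODE releases 44 and, for mouse, M21. Named were the members, pathway genes that were called or had a fold of at least 2 or a mean of at least 50 CPM, and the 3 genes with the most similar log2 CPM per member. The members and gene lists were chosen with earlier results of these data known. Alternatives included DESeq2 1.42.0, other normalization and filters, the replicate number as a block, each library left out and, added after seeing the data, a loess correction for GC content and length (span 0.3). The code was tested on simulated counts.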

Additional observations from a re-analysis of the deposited data

Results flagged for a closer look

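Values in each group of 4 libraries were checked for 1 library far from the other 3, in 52 groups, where chance would set apart about 1 in 20. In REC-1 cells, NOTCH2 was at 298.1 CPM in Susp replicate 2 against 659.8 to 686.8 CPM in the other Susp libraries, and DTX1 was at 902.8 CPM in Susp replicate 1 against 1167 to 1200 CPM. In MS-5 cells in coculture, replicate 4 was set apart for both Notch3, at 71.49 CPM against 60.02 to 61.93 CPM, and Jag1, at 6.641 CPM against 8.579 to 8.918 CPM. Susp replicate 2 was also low for other long genes and Susp replicate 1 was lower than the other Susp libraries for genes of high GC content. Their part in these values was not tested.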

How the results depend on the processing

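Of 397 refits of the 21 member results, 3 passed the call: NOTCH1 between Adh and Sep without Sep replicate 1, HES4 between Adh and Susp with no low-count filter, and NRARP between Adh and Susp with the replicate block and the GC and length correction together (-0.62, edgeR adjusted p = 0.0308). The sign changed in 26 refits, in 9 of the 21 results, none of them called. With the GC and length correction, alone and then with the replicate block, NOTCH2 between Adh and Susp went from -0.04 to 0.080 and 0.10, and DTX1 went to 0.23 and 0.23 between Adh and Susp, to -0.085 and -0.084 between Susp and Sep and to 0.14 and 0.14 between Adh and Sep. Between Susp and Sep, NOTCH2 was 0.019 and HES1 -0.043 without Susp replicate 2, and with the replicate block over the other 11 libraries NOTCH2 was 0.059, HES1 -0.12 and NOTCH1 0.056. Leaving out 1 library at a time, NOTCH2 ranged from -0.24 to 0.047 and HES1 from -0.10 to 0.23 between Adh and Susp, NOTCH1 from -0.26 to 0.068, NOTCH2 from -0.27 to 0.019 and HES1 from -0.043 to 0.26 between Susp and Sep, and DTX1 from -0.17 to 0.030 and HES4 from -0.51 to 0.13 between Adh and Sep. The 14 results of other named genes kept their sign in all 266 refits, of which 44 were called, 17 of them for CR2 between Susp and Sep. Most of these genes were named for their differences in the same libraries that the refits reuse. Their kept sign is therefore no separate support and cannot be set against the sign changes of the members. Jag1, Jag2 and Dll1 kept their sign in every refit that gave a value, but with 1 library left out Jag1 ranged from 0.15 to 0.33, Jag2 from -0.66 to -0.074 and Dll1 from 0.018 to 0.37, and DESeq2 gave no adjusted p for Jag2 and Dll1.

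Counts of called genes moved more. Between Adh and Susp they went from 100 to 281 with the replicate block, 235 with DESeq2, 341 with no low-count filter, 419 with the block over 11 libraries, 59 with the GC and length correction, 563 with that correction and the block, and 51 to 92 with 1 library left out, with 66 without Susp replicate 4, 51 without Adh replicate 1 and 62 without Adh replicate 3. Between Susp and Sep, 94 became 175, 157, 217, 144, 59 and 232 under the same 6 settings, and 64 to 135 with 1 library left out. Between Adh and Sep, 309 became 468 with DESeq2, 503 with no low-count filter, 680 with the block over 11 libraries, and 143 to 519 with 1 library left out, with 519 without Susp replicate 2, 490 without Sep replicate 1, 143 and 173 without Sep replicates 2 and 4, and 203 and 192 without Adh replicates 1 and 3. In MS-5 cells, 25 became 45 with the replicate block, 45 with no low-count filter, 94 with no fold minimum, 46 with the block and the correction, and 8 to 36 with 1 library left out, with 13, 8 and 11 without MS-5 replicates 2, 3 and 4 and 13 without Adh replicate 3. Pathway genes called went from 0 between Adh and Susp to 2 with the replicate block, 1 with DESeq2, 2 with no low-count filter, 2 with the block over 11 libraries, 4 with the block and the correction, and 0 to 1 with 1 library left out, where DTX3 was called without Susp replicate 2. From 1 between Susp and Sep they went to 4 with the replicate block, 4 with no low-count filter, 2 with the block over 11 libraries, 3 with the block and the correction, and 0 to 1 with 1 library left out (0 without Susp replicate 2). From 0 between Adh and Sep they went to 1, 1, 1, 2 and 3 with the replicate block, DESeq2, no low-count filter, the block over 11 libraries and the block with the correction, and 0 to 1 with 1 library left out, with 1 each without Susp replicate 2, Sep replicate 1 and Adh replicate 3. The cause of these changes was not tested.

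The main model did not pair libraries by number. The study compared Susp and Adh within the cocultures of independent experiments, and a sample code in the labels groups the samples of a number. A pairing by design is therefore likely, although no label states that a number is 1 coculture. For such a pairing the values with the replicate block are the ones that apply. Same-numbered libraries deviated together (r above 0.1) for 1, 1, 3 and 2 of 4 numbers in the 4 comparisons, which cannot exclude such a pairing. By number, NOTCH1, NRARP and DTX1 were lower in Adh than in Susp in 4 of 4, NOTCH2 and HES4 in 3 and HES1 in 1. Between Adh and Sep, NOTCH1 and NOTCH2 were lower in Adh in 4 of 4, DTX1 and HES4 in 3 and NRARP and HES1 in 2. The share of all tested genes with 4 of 4 in 1 direction was not determined. With the replicate block NOTCH1 was -0.43 between Adh and Susp (edgeR adjusted p = 0.0356) and -0.46 between Adh and Sep (0.0244), both under the fold minimum. Each library correlated best with its own number for 1, 1, 3 and 3 of 4. The mouse share of ligand reads in Adh libraries, 69.0%, was 40.0% as CPM within each species and 66.8% to 70.8% with 1 library left out. At these depths Jag2 and Dll1, at under 3 CPM, could not show small differences, and Dll4 was below the floor.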
